A study of Mus musculus with 12 samples.

Results

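The enzymes of glycolysis and of the tricarboxylic acid (TCA) cycle were followed as 38 genes, chosen by symbol. Of these, 17 act in glycolysis, from the hexokinases to lactate dehydrogenase, and 21 form or control the pyruvate dehydrogenase complex or act in and around the TCA cycle. Each table of the study listed 24417 genes. An enzyme was tested in a table if its mean normalized count there was at least 10, which held for 15 glycolysis and 18 TCA enzymes between the receptors in islets, 14 and 20 in spleen, 15 and 20 between tissues for the receptor 4-8, and 15 and 19 for the receptor 12-4.4m1. The enolase Eno1, the lactate dehydrogenase Ldhb and the succinyl-CoA ligase subunit Suclg2 were below that level in all 4 tables. Hk2 was below it in the spleen table, Pdk1 and Idh1 in the islet table, and Idh1 in the tissue table of 12-4.4m1.

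Glycolysis splits glucose into pyruvate in the cytosol, and lactate dehydrogenase can turn that pyruvate into lactate. The pyruvate dehydrogenase complex instead passes pyruvate into the mitochondrion's TCA cycle, whose reactions feed the respiratory chain. T cells that are stimulated through their receptor raise glycolysis, while regulatory T cells (Tregs) at rest are known for reliance on mitochondrial oxidation, and glucose use in Tregs has been tied to proliferation and migration.

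The cells were Tregs, the T cells that express Foxp3 and restrain immune responses, sorted from NOD mice, a strain prone to autoimmune diabetes. All mice were 6.8 weeks old and were two-TCR retrogenic animals, in which introduced T cell receptor (TCR) genes give the T cells a known receptor. Both receptors recognise insulin, 4-8 as the high affinity TCR and 12-4.4m1 as the low affinity one, and each came from the pancreatic islets and from the spleen. The 4 groups were thus islet 4-8, islet 12-4.4m1, spleen 4-8 and spleen 12-4.4m1, with 3 RNA-seq libraries each and 12 in all. No other allele or agent is given in the labels. Each affinity is represented by 1 receptor, so affinity cannot be told apart from other properties of these receptors. The labels do not say which libraries come from separate mice, so p-values measure the spread between libraries, which may in part be technical.

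The libraries entered 4 pairwise tables, 6 libraries to a table. Normalization was separate for each, so values are compared only within a table. The unit is the authors' rlog value, a log2 expression value in which genes with few counts are pulled towards their mean, so that their fold changes are understated. The files hold no raw counts from which a library's depth could be taken, and the mean normalized count of a gene is therefore quoted as the guide to its precision. Differences were tested with limma over all genes of a table with a mean normalized count of at least 10, and a gene was called at an adjusted p under 0.05 (Benjamini-Hochberg). All 8 Treg and T cell markers, Foxp3 among them, were above the count minimum in every table. Foxp3 itself stood at a mean rlog value of 9.72 in islets and 9.78 in spleen with 4-8, and at 9.24 and 9.15 with 12-4.4m1, and was not called. In these bulk libraries, fewer cells of a type and less RNA per cell cannot be told apart.

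The tissue comparison asked how Tregs with the same receptor differ between the islets, where their antigen is made, and the spleen. The calls among glycolysis enzymes were all for higher values in islets, and 4 of the enzymes, Hk2, Pfkp, Gapdh and Pkm, were called with both receptors. With 4-8, 8 of 15 tested glycolysis enzymes were called higher in islets and 0 lower, against 5.14% of all genes called higher and 2.84% called lower. With 12-4.4m1, 5 of 15 were called higher and 0 lower, against 4.63% and 2.18% of all genes, and the other 10 did not pass. That second count fell as low as 1 when a single library was left out. The counts of lower enzymes were 0 in both tables also at an unadjusted p under 0.05, in the authors' DESeq2 table and in their Cuffdiff table. The median difference of the tested glycolysis enzymes was 0.65 with 4-8 and 0.48 with 12-4.4m1 on the log2 scale, beside -0.01 and -0.00 over all genes tested. All 15 lay above 0 in each table, beside 48.3% and 49.7% of all genes. Islet and spleen libraries did not overlap, with islets higher, for 10 and 7 of the 15, beside 14.3% and 13.2% of all genes.

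**Figure D1:**
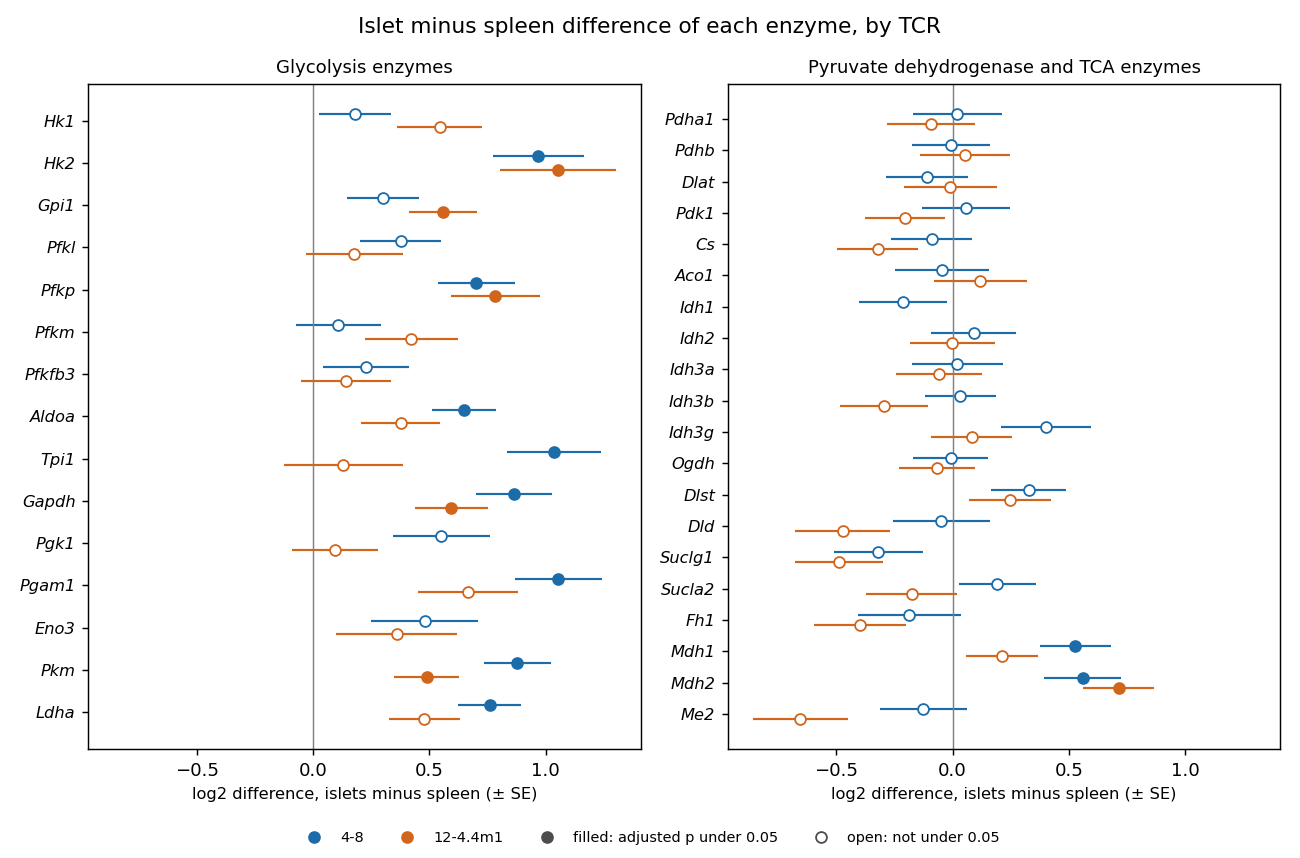
Log2 difference (islets minus spleen, with the SE of the limma fit) of each tested enzyme for 4-8 (blue) and 12-4.4m1 (orange), with filled points at an adjusted p under 0.05. The glycolysis enzymes lie between 0.10 and 1.05, and the TCA enzymes spread on both sides of 0, with Mdh2 filled for both receptors.

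Those 4 and the TCA enzyme Mdh2 were the members called higher in islets in both tissue tables, which share no library. They are 5 of the 34 enzymes tested in both, 50% of the 10 called with 4-8 and 83.3% of the 6 called with 12-4.4m1. Among all genes tested in both, 2.8% were called higher in each table, and these are 50.2% of the genes called higher with 4-8 and 59.3% of those with 12-4.4m1. The shared calls differ in firmness: of 6 fits that each left out 1 library, Mdh2 with 4-8 passed in 1, and Gapdh and Pkm with 12-4.4m1 passed in 2 each. The 250 bases before the RefSeq start sites of 3 of them are shown because these genes were called together and their windows hold the most copies, among the 5 genes, of a short motif of the hypoxia-inducible factor HIF-1, a known activator of glycolysis genes. Capitals mark ACGTG or GCGTG or the reverse complements CACGT and CACGC, the core of that motif, in RefSeq sequence of build GRCm38.p6 written 5′ to 3′ on the gene's strand. For Pfkp, 6 bases next to the start site, which lie in an annotated exon, were left off.
Hk2, chr6:82774455-82774704, minus strand: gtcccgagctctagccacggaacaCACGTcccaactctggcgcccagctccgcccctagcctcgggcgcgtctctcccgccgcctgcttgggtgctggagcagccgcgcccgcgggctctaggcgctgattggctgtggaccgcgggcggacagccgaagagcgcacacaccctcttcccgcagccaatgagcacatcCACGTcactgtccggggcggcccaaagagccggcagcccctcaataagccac
Pfkp, chr13:6648778-6649021, minus strand: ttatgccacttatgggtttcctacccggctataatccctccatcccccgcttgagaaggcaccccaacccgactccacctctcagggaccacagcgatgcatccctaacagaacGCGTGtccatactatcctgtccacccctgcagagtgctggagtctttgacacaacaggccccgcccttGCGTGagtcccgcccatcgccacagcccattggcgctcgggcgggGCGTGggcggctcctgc
Gapdh, chr6:125165774-125166023, minus strand: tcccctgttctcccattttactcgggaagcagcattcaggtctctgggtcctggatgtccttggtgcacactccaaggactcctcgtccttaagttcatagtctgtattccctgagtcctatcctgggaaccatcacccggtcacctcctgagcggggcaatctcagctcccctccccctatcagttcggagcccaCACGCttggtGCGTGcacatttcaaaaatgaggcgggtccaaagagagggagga
The Hk2 window holds 2 such cores, which begin at -226 and -52 from the start site. That of Pfkp holds 3, at -136, -68 and -23, and that of Gapdh 2, at -54 and -44. The other shared genes had fewer: Mdh2 had 1, and Pkm had 0 at its first start site and 1 at its second. Those windows overlap annotated exons and are not printed. The Gapdh window lies inside the annotated gene, upstream of its RefSeq start, and overlaps no annotated exon.

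Of the 38 enzymes, 36 had an entry among these promoters, some with several start sites. At least 1 core stood in 22 of 28 windows of the glycolysis enzymes (78.6%) and in 16 of 26 windows of the TCA enzymes (61.5%). The same held for 58.4% of the windows of genes tested in the 4-8 tissue table and for 38.6% of all 32851 windows. Counted by gene, it held for 15 of 17 glycolysis enzymes (88.2%) and 11 of 19 TCA enzymes (57.9%). The shares by gene were 64.1% for tested genes and 41.5% for all, so the TCA share lay above that of tested genes by window and below it by gene. The motif CACGTG, which contains ACGTG and is bound by Myc, stood in 3 of 28 and 3 of 26 windows, beside 8.62% of the windows of tested genes. By gene it stood in 3 of 17 and 1 of 19, beside 10.3% of tested genes. The windows of both enzyme groups were rich in G and C, with medians of 60.4% and 61.4%, beside 60% for tested genes and 52.4% for all. A match is a description of letters and shows no binding.

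Hexokinases trap glucose in the cell by phosphorylating it. Hk2 (chromosome 6, 82725025 to 82774454 in GRCm38, GENCODE vM21), the inducible form, had rlog values of 4.87, 4.25 and 4.75 in the 3 islet 4-8 libraries and 3.47, 3.69 and 3.81 in the spleen 4-8 libraries. With 12-4.4m1 its values were 4.84, 4.69 and 5.73 in islets and 3.89, 3.68 and 4.53 in spleen. In both tables the lowest islet library was above the highest spleen library, and replicate 3 of 12-4.4m1 was the highest of its group in each tissue. The difference was 0.97 ± 0.19 (SE; adjusted p 0.00453, limma) with 4-8 and 1.05 ± 0.25 (adjusted p 0.00937) with 12-4.4m1. These rest on mean normalized counts of 23.2 and 33.3, low enough for rlog shrinkage to matter. The authors' deposited Cuffdiff table gave 5.62 FPKM (fragments scaled to transcript length and library size) in islets and 0.669 in spleen with 4-8, and 10.3 and 2.02 with 12-4.4m1, without a test for this gene.

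Hk1, the constitutive hexokinase, was not called in either table, with differences of 0.18 ± 0.15 and 0.54 ± 0.18 (adjusted p 0.539 and 0.0753, limma). Hk2 thus made up 14.6% of the summed FPKM of both hexokinases in islet 4-8 cells and 2.35% in spleen 4-8 cells, by the authors' deposited values. With 12-4.4m1 these shares were 20.0% and 7.50%, from the authors' deposited table as well. Hk1 remained the more abundant form per length in all 4 groups. No error accompanies the authors' group FPKM, so the shares are descriptions.

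**Figure D2:**
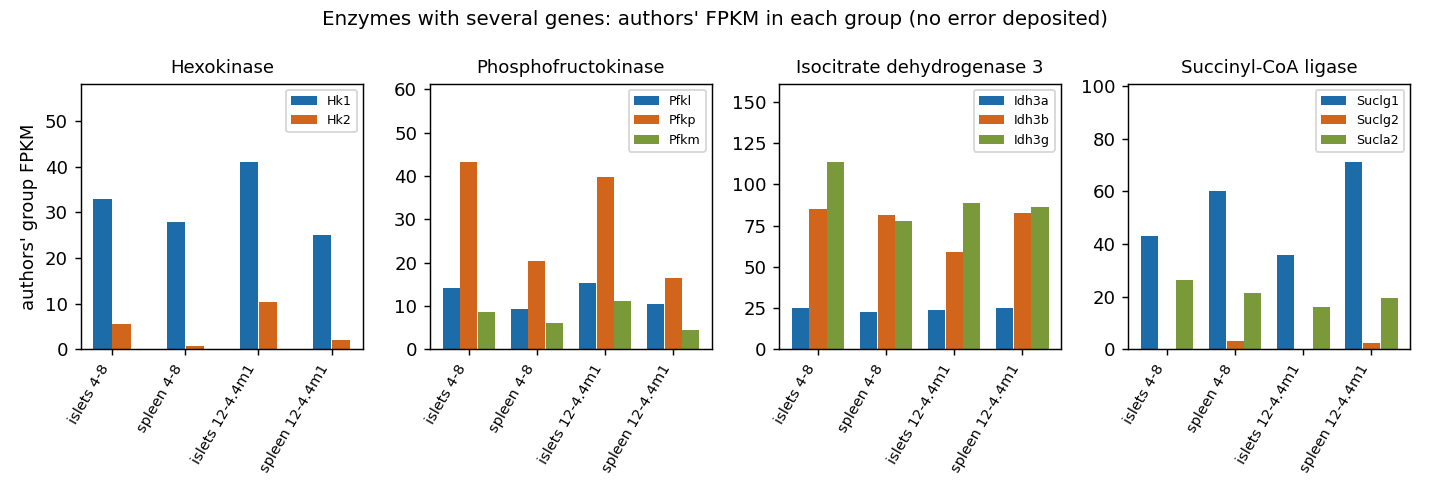
The authors' deposited FPKM per group for enzymes encoded by several genes, from the 2 tissue tables, as bars from 0 with no error available. Hk2 and Pfkp stand higher in the islet groups than in the spleen groups, and Suclg1 stands lower.

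Phosphofructokinase commits sugar to glycolysis, and the platelet form Pfkp (chromosome 13, 6579768 to 6648777) was its most abundant gene here. Its rlog values with 4-8 were 7.69, 7.91 and 7.59 in islets and 7.11, 7.19 and 6.79 in spleen. With 12-4.4m1 they were 6.94, 7.33 and 6.95 in islets and 6.28, 6.67 and 5.92 in spleen. The groups did not overlap in either table. The differences were 0.70 ± 0.17 (adjusted p 0.0139, limma) and 0.78 ± 0.19 (adjusted p 0.0116). In the authors' deposited table Pfkp stood at 43.3 against 20.3 FPKM with 4-8 and at 39.8 against 16.4 with 12-4.4m1. The liver form Pfkl and the muscle form Pfkm had differences of 0.38 and 0.11 with 4-8 and 0.18 and 0.42 with 12-4.4m1, and neither was called. Pfkfb3, which makes the activator of phosphofructokinase, was not called either, at 0.23 ± 0.19 and 0.14 ± 0.19. Gpi1, the isomerase between hexokinase and phosphofructokinase, was called with 12-4.4m1, where its islet values of 8.45, 8.54 and 8.35 stood above spleen values of 7.84, 7.83 and 7.99. That difference was 0.56 ± 0.15 (adjusted p 0.0191, limma), beside 0.30 ± 0.15 (adjusted p 0.261) with 4-8.

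Aldoa, the aldolase that splits the phosphorylated sugar, had rlog values of 9.43, 9.63 and 9.47 in islet 4-8 libraries and 8.80, 8.94 and 8.85 in spleen, a difference of 0.65 ± 0.14 (adjusted p 0.00655, limma). With 12-4.4m1 it differed by 0.38 ± 0.17 and was not called (adjusted p 0.205). Tpi1, which interconverts the products of that split, had values of 7.29, 7.23 and 7.66 in islet 4-8 libraries and 5.92, 6.73 and 6.43 in spleen. Every islet library was above every spleen library, and the difference was 1.03 ± 0.20 (adjusted p 0.00355, limma). With 12-4.4m1 the Tpi1 values were 5.74, 4.98 and 6.52 in islets and 5.65, 5.81 and 5.39 in spleen. There the groups overlapped, with the islet libraries at both ends of the range, and the difference was 0.13 ± 0.26 (adjusted p 0.840). Whether the receptors differ in the tissue difference of Tpi1 was not tested, since the tables were normalized separately.

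Gapdh (chromosome 6, 125161715 to 125166467), which makes the first high-energy intermediate, had rlog values of 10.47, 10.02 and 10.67 in islet 4-8 libraries and 9.34, 9.67 and 9.56 in spleen. With 12-4.4m1 its values were 9.27, 9.17 and 9.81 in islets and 8.85, 8.79 and 8.83 in spleen. No spleen library reached an islet library in either table. The differences were 0.86 ± 0.16 (adjusted p 0.00288, limma) and 0.59 ± 0.16 (adjusted p 0.0199). Since Gapdh is often used as a constant reference gene, its group levels in the authors' deposited table are also given, at 1246 against 594 FPKM with 4-8 and 922 against 507 with 12-4.4m1. Pgk1, the next enzyme, was not called, at 0.55 ± 0.21 and 0.10 ± 0.19.

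Pgam1, the mutase that follows, had values of 6.50, 6.66 and 7.08 in islet 4-8 libraries and 5.72, 5.53 and 5.82 in spleen. Those groups did not overlap, and the difference was 1.05 ± 0.19 (adjusted p 0.0015, limma). With 12-4.4m1 it was 0.67 ± 0.21 and was not called (adjusted p 0.0605). The enolase Eno3, known as the muscle form, was not called with either receptor (0.48 ± 0.23 and 0.36 ± 0.26).

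Pkm (chromosome 9, 59656368 to 59679375), the pyruvate kinase, had rlog values of 10.23, 10.53 and 10.50 in islet 4-8 libraries and 9.32, 9.70 and 9.62 in spleen. With 12-4.4m1 its values were 9.42, 9.42 and 9.69 in islets and 9.01, 9.08 and 8.98 in spleen. The islet libraries were the higher ones without overlap in both tables. The differences were 0.88 ± 0.15 (adjusted p 0.00085, limma) and 0.49 ± 0.14 (adjusted p 0.0312). The tables do not separate its splice forms. Ldha, which makes lactate, had values of 10.50, 10.28 and 10.54 in islet 4-8 libraries and 9.55, 9.77 and 9.71 in spleen, a difference of 0.76 ± 0.14 (adjusted p 0.00167, limma). With 12-4.4m1 the Ldha groups did not overlap either, but the difference of 0.48 ± 0.15 missed the threshold (adjusted p 0.0601, limma). Ldha made up 98.8% to 99.9% of the summed FPKM of Ldha and Ldhb across the 4 groups, by the authors' deposited values.

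**Figure D3:**
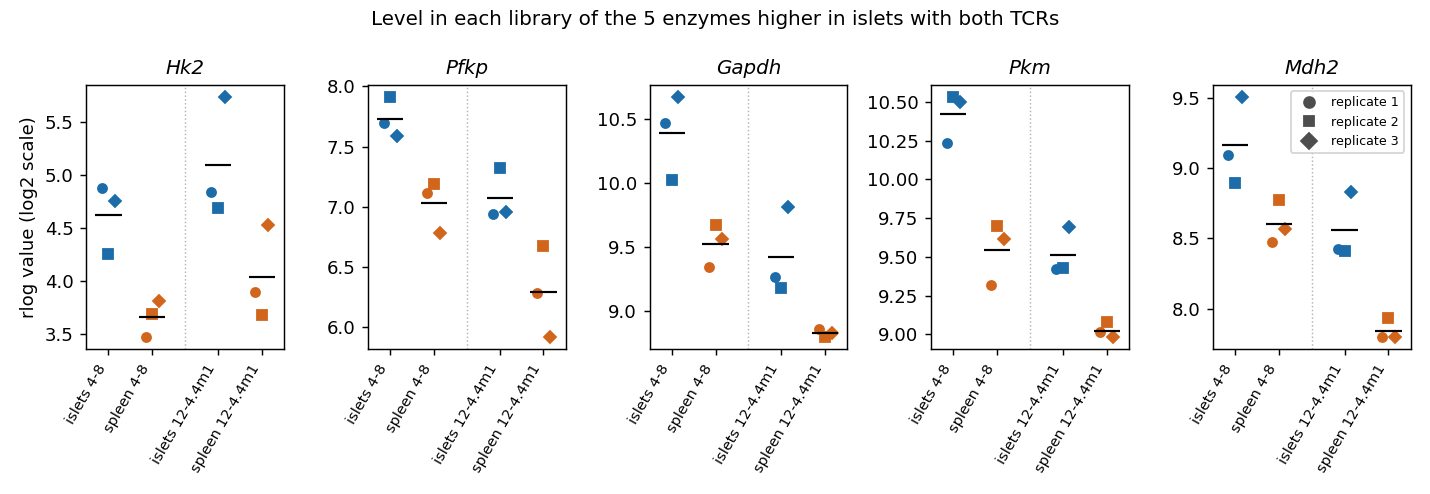
Rlog value (log2 scale) of each library for the 5 enzymes called higher in islets with both receptors, with islets in blue, spleen in orange, the group mean as a line and a dotted line between the separately normalized tables. In each panel and table every islet point lies above every spleen point, and islet 12-4.4m1 replicate 3 is the highest point of its group for Hk2, Gapdh, Pkm and Mdh2.

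Among the pyruvate dehydrogenase and TCA enzymes, 2 of 20 were called higher with 4-8 and 1 of 19 with 12-4.4m1, beside 5.14% and 4.63% of all genes. With 4-8, 0 were called lower, also at an unadjusted p under 0.05 and in both of the authors' tables. With 12-4.4m1, 0 were called lower by limma and by the authors' DESeq2 table. At an unadjusted p under 0.05, 3 of 19 were lower, beside 763 of the 8438 genes tested. The authors' Cuffdiff table called 3 lower, beside 4.89% of all genes. Medians were 0.01 and -0.07, close to those over all genes, and 10 of 20 and 6 of 19 lay above 0, beside 48.3% and 49.7% of all genes. The pyruvate dehydrogenase subunits Pdha1, Pdhb and Dlat lay between -0.11 and 0.05 in both tables, and none was called. Cs, the citrate synthase that opens the cycle, had differences of -0.09 ± 0.17 and -0.32 ± 0.18 and was not called.

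The called TCA enzymes were malate dehydrogenases, which convert malate and oxaloacetate in the mitochondrion (Mdh2) and in the cytosol (Mdh1). Mdh2 (chromosome 5, 135778480 to 135790398) had rlog values of 9.09, 8.90 and 9.51 in islet 4-8 libraries and 8.47, 8.77 and 8.57 in spleen. With 12-4.4m1 its values were 8.43, 8.41 and 8.83 in islets and 7.80, 7.94 and 7.80 in spleen. The groups did not overlap, with a wide gap for 12-4.4m1 and a narrow one for 4-8. The differences were 0.56 ± 0.17 (adjusted p 0.0465, limma) with 4-8 and 0.71 ± 0.15 (adjusted p 0.00444) with 12-4.4m1. Mdh1 had values of 8.89, 9.05 and 8.89 in islet 4-8 libraries and 8.34, 8.24 and 8.67 in spleen, a difference of 0.53 ± 0.15 (adjusted p 0.0412, limma). With 12-4.4m1 it differed by 0.21 ± 0.16 (adjusted p 0.490). Both 4-8 calls sit close to the threshold, and neither held when spleen 4-8 replicate 1 or replicate 2 or islet 4-8 replicate 1 was left out. Mdh2 was also lost without islet or spleen replicate 3 (adjusted p 0.140 and 0.171, limma), so that it held in the fit without islet replicate 2 alone.

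No TCA enzyme was called lower in islets by limma, and Me2 had the smallest p among those with lower values. Me2, the mitochondrial malic enzyme that returns malate to pyruvate, had values of 5.24, 4.76 and 5.35 in islet 12-4.4m1 libraries and 6.08, 5.53 and 5.70 in spleen. The groups did not overlap, but the difference of -0.65 ± 0.20 missed the threshold (adjusted p 0.0532, limma). Without islet 12-4.4m1 replicate 3 it passed, at -0.77 (adjusted p 0.0263, limma). Suclg1, the shared subunit of succinyl-CoA ligase, had values of 5.70, 5.59 and 5.75 in islets and 5.85, 6.17 and 6.48 in spleen with 12-4.4m1, a difference of -0.49 ± 0.19 (adjusted p 0.131, limma). The authors' deposited Cuffdiff table called Me2 (12.1 against 28.7 FPKM, q 0.0234), Suclg1 (35.8 against 71.1 FPKM, q 0.0231) and the fumarase Fh1 (24.6 against 48.3 FPKM, q 0.0428) lower in islet 12-4.4m1 cells. With 4-8 the rlog differences of these 3 genes were -0.12, -0.32 and -0.19, and none was called.

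The subunits of isocitrate dehydrogenase 3, which releases the first CO2 of the cycle, were not called in either table. Idh3g had values of 7.69, 7.10 and 7.56 in islet 4-8 libraries and 6.69, 7.23 and 7.22 in spleen, overlapping groups with a difference of 0.40 ± 0.19 (adjusted p 0.232, limma). Without islet 4-8 replicate 2 it passed, at 0.58 (adjusted p 0.0372, limma). Idh3b and Idh3a differed by 0.03 and 0.02 there. With 12-4.4m1 the differences were 0.08, -0.29 and -0.06 for Idh3g, Idh3b and Idh3a, and none was called. The 2-oxoglutarate dehydrogenase subunits Ogdh, Dlst and Dld ranged from -0.05 to 0.33 with 4-8 and from -0.47 to 0.25 with 12-4.4m1, again with no call. Groups did not overlap, with islets lower, for 3 of 19 TCA enzymes with 12-4.4m1 (Me2, Suclg1 and Dld), beside 10.9% of all genes, and for 0 of 20 with 4-8, beside 13.1%. With islets higher they did not overlap for 4 of 20 with 4-8 (Dlst, Sucla2, Mdh1 and Mdh2), beside 14.3% of all genes, and for 1 of 19 with 12-4.4m1 (Mdh2), beside 13.2%.

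The authors' deposited FPKM values also show how the products of related genes are shared out. Idh3g made up 50.9% of the summed Idh3 FPKM in islet and 42.6% in spleen 4-8 cells, and 51.6% and 44.5% with 12-4.4m1, by the authors' deposited table. For succinyl-CoA ligase the share of Suclg1 was 62.1% in islet and 71.1% in spleen 4-8 cells, and 69.2% and 76.6% with 12-4.4m1, in the authors' deposited table. Suclg2, the GTP-forming subunit, was listed at 0 in both islet groups of that deposited table and at 3.13 and 2.34 FPKM in spleen, at mean normalized counts of 2.75 and 1.95. Of the enolases, Eno3 gave 43.0% and 40.6% of the authors' deposited FPKM with 4-8 and 31.4% and 23.6% with 12-4.4m1, islets before spleen. The Eno1 values behind these shares are uncertain.

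The mean over the tested enzymes of each library sets the pathways side by side. With 4-8 the glycolysis mean was 7.63, 7.66 and 7.65 in islets and 6.94, 7.08 and 7.10 in spleen, while the TCA mean was 6.34, 6.22 and 6.22 in islets and 6.12, 6.21 and 6.28 in spleen. With 12-4.4m1 the glycolysis mean was 6.79, 6.74 and 7.19 in islets and 6.48, 6.44 and 6.43 in spleen, while the TCA mean was 5.78, 5.69 and 5.69 in islets and 5.77, 5.83 and 5.86 in spleen. Glycolysis means of islet and spleen libraries did not overlap in either table, and TCA means did. The glycolysis mean minus the TCA mean was 1.30 to 1.45 in islet 4-8 libraries and 0.82 to 0.87 in spleen 4-8 libraries. For 12-4.4m1 it was at most 1.05 in islet replicates 1 and 2, 1.49 in islet replicate 3, which stood apart, and 0.57 to 0.71 in spleen. These means are descriptions and carry no test, since the enzymes were chosen with earlier results of these data known.

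**Figure D4:**
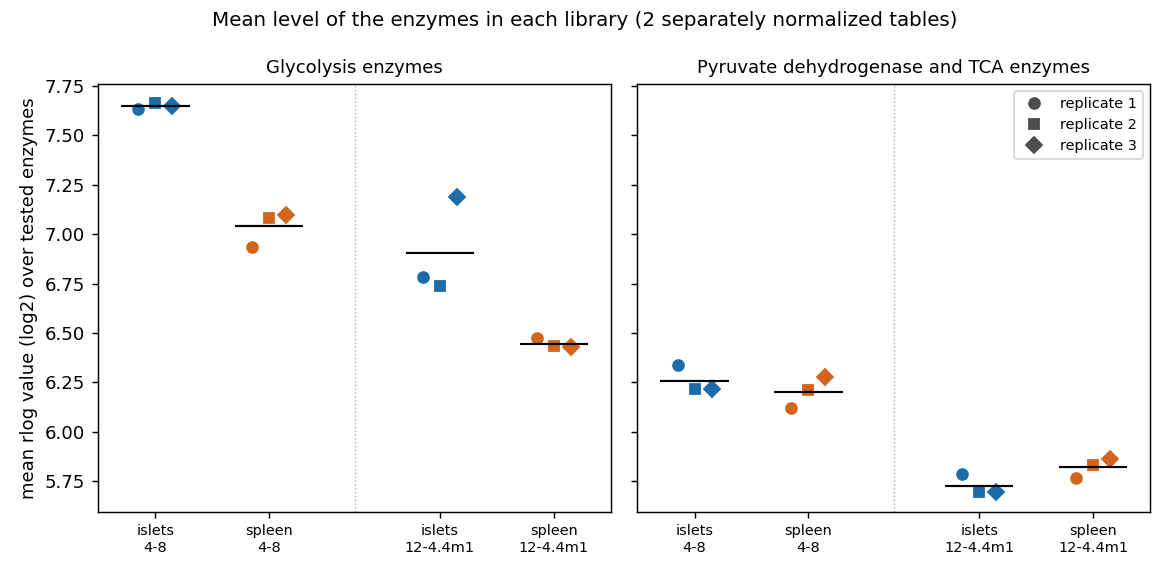
Mean rlog value (log2) over the tested glycolysis enzymes (left) and TCA enzymes (right) in each library of the 2 tissue tables, with islets in blue, spleen in orange and the group mean as a line. The islet libraries lie above the spleen libraries for glycolysis in both tables, while for TCA enzymes the groups overlap, and islet 12-4.4m1 replicate 3 lies at 7.19 for glycolysis.

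The 4-8 result held through the removal of single libraries, with 6 to 9 glycolysis enzymes called. Aldoa and Pfkp were lost without spleen 4-8 replicate 1 (adjusted p 0.0542 and 0.0522, limma), and Pfkp without spleen 4-8 replicate 3 (0.121). The 12-4.4m1 count of 5 was less firm. It ranged from 1 to 6 when single libraries were left out. It was 1 (Pfkp) without spleen 12-4.4m1 replicate 1 or replicate 2, 3 without islet or spleen replicate 3, and 2 (Pfkp and Hk2) with quantile normalization or without the variance trend, while the authors' Cuffdiff table called 8 higher, beside 9.5% of all genes. Whether the tissue difference itself depends on the receptor was not tested, so the smaller count with 12-4.4m1 does not show a smaller difference.

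Islet libraries also differed from spleen libraries in ways that were measured beside the enzymes. Heat shock and immediate early genes are a class that tissue dissociation is known to induce. Of these, 17 of 18 tested genes were called higher in islets with 4-8 (median 1.66), beside 5.14% of all genes. With 12-4.4m1, 18 of 19 were called higher (median 1.84), beside 4.63%. The mean rlog value of that list was 8.69 to 8.79 in islet and 6.68 to 6.74 in spleen 4-8 libraries, and 8.31 to 8.63 and 6.24 to 6.52 with 12-4.4m1. Beside the same shares of all genes, 7 of 9 tested markers of pancreatic acinar cells (15 listed) were called higher in islets with 4-8. With 12-4.4m1, 7 of 8 tested markers of these cells were called higher. Between the receptors, 0 of the 15 reached the count minimum in spleen, and 11 did in islets. The tested acinar markers thus passed that minimum through the islet libraries, and their calls are in part fixed by it. Their mean rlog value was 3.34 to 4.19 in islet and 2.79 to 2.95 in spleen 4-8 libraries, and 4.27 to 4.56 and 3.12 to 3.30 with 12-4.4m1. Summed over the 15 markers, the authors' deposited table gave 392 against 13.0 FPKM with 4-8 and 642 against 10.5 with 12-4.4m1, and it listed Prss1 and Amy2a5 at 0 in all groups and Clps, Pnlip and Try4 at 0 in both spleen groups. Islet endocrine markers summed to 7.24 against 6.14 FPKM and 42.4 against 26.7 FPKM in the authors' deposited tables, and myeloid markers to 41.9 against 25.7 and 46.3 against 29.4. Of the 8 Treg and T cell markers, 3 were called higher with 4-8 (Ctla4, Cd4 and Cd3e), beside 5.14% of all genes. With 12-4.4m1, 2 were called higher (Ctla4 and Cd4), beside 4.63%. The median difference of that list was 0.25 and 0.12, 2 and 3 of its genes lay below 0, and Ctla4 differed the most, by 2.03 and 2.21. The part of these genes in the enzyme differences was not tested.

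Genes around the 2 pathways were counted from lists that do not hold the 38 enzymes. Among transporters of glucose, lactate and pyruvate, 2 of 8 tested genes were called higher in islets with 4-8, beside the same 5.14%. With 12-4.4m1, 1 of 6 was called higher, beside 4.63%. By limma 0 were called lower in either table. With 12-4.4m1, 1 was lower at an unadjusted p under 0.05, beside 763 of the 8438 genes tested. The authors' Cuffdiff table called 1 lower there, beside 4.89%. Each of these lower counts was 0 with 4-8. Slc2a1, the glucose transporter GLUT1, rose from 5.61 to 6.97 with 4-8 (difference 1.36 ± 0.18, adjusted p 7.14e-05, limma) and from 4.47 to 5.27 with 12-4.4m1 (0.79 ± 0.20, adjusted p 0.0163). Slc16a3, the lactate exporter MCT4, rose from 3.41 to 4.64 with 4-8 (1.24 ± 0.18, adjusted p 0.00022, limma) and was below the count minimum with 12-4.4m1. The other glucose transporter of T cells, Slc2a3, was not called, with differences of -0.14 ± 0.16 and -0.50 ± 0.18. The Slc2a1 groups did not overlap in either table.

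Of the HIF and hypoxia genes, 4 of 16 were called higher with 4-8 and 1 of 15 with 12-4.4m1, beside 5.14% and 4.63% of all genes. The transcription factor Bhlhe40, which also responds to TCR signals, differed by 1.66 ± 0.16 and 1.83 ± 0.17 (adjusted p 2.91e-06 and 3.61e-08, limma). With 4-8 the others were Ddit4 (1.11 ± 0.22), an inhibitor of mTORC1, the prolyl hydroxylase Egln3 (0.87 ± 0.21) and the Myc antagonist Mxi1 (0.71 ± 0.19), the last named after its value was seen. Hif1a itself was not called (0.38 ± 0.14 and 0.23 ± 0.16, adjusted p 0.127 and 0.456, limma). By limma 0 of the HIF and hypoxia genes were called lower in either table. With 4-8, 7 were higher and 0 lower at an unadjusted p under 0.05, beside 1045 and 953 of the 8981 genes tested. With 12-4.4m1, 1 was higher and 2 were lower at that p, beside 946 and 763 of the 8438 genes tested. Among 14 tested Myc and mTORC1 regulators 0 were called in either table by limma, and Myc differed by 0.25 ± 0.21 and 0.50 ± 0.20. At an unadjusted p under 0.05, 1 of them was lower with 4-8 and 1 was higher and 1 lower with 12-4.4m1. The authors' DESeq2 table called 0, and their Cuffdiff table called 1 lower with 4-8 and 2 higher with 12-4.4m1.

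Other glycolysis genes, 12 and 9 tested, gave 0 calls by limma and by both of the authors' tables, and 0 at an unadjusted p under 0.05. The 8 pentose phosphate genes gave 0 calls by limma and by both of the authors' tables, with 1 lower at an unadjusted p under 0.05 in each table, and medians of 0.06 and -0.06. Among other TCA and anaplerosis genes, 1 of 16 and 1 of 15 were called higher, in both tables Got1, shares close to the 5.14% and 4.63% of all genes. At an unadjusted p under 0.05, 3 were higher and 1 lower with 4-8, and 3 higher and 2 lower with 12-4.4m1. The authors' Cuffdiff table called 3 higher with 4-8, and 1 higher and 1 lower with 12-4.4m1. Got1, the cytosolic aspartate aminotransferase that works with Mdh1 in the malate-aspartate shuttle, differed by 0.88 ± 0.18 and 1.16 ± 0.19 (adjusted p 0.00571 and 0.000293, limma). The succinate dehydrogenase subunit Sdha (-0.15 ± 0.16 and 0.00 ± 0.19) was not called. Pdp1, a phosphatase that activates pyruvate dehydrogenase, was called lower in islets with 12-4.4m1 (-0.55 ± 0.17, adjusted p 0.0494, limma) at a mean normalized count of 10.3, and differed by -0.05 ± 0.17 with 4-8.

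The receptor comparison set Tregs carrying 4-8 against Tregs carrying 12-4.4m1 from the same tissue, as a contrast of high with low affinity. In islets, 0 of 15 glycolysis and 0 of 18 TCA enzymes were called, beside 0.365% of all genes. In spleen, 0 of 14 and 0 of 20 were called, beside 0.428%. At an unadjusted p under 0.05, 5 glycolysis enzymes and 1 TCA enzyme differed in islets, beside 6.78% of all genes in either direction. In spleen 1 glycolysis enzyme differed, beside 7.93% of all genes in either direction. These enzymes were all higher with 4-8, and 0 were lower. Of all genes tested, 310 of 8212 in islets and 318 of 9108 in spleen were higher with 4-8 at that p. The authors' DESeq2 tables called 0 of the enzymes in either tissue, and their Cuffdiff tables called 0 in islets and in spleen 1 (Eno3), beside 0.563% of all genes called higher there. Median differences (4-8 minus 12-4.4m1) were 0.22 for glycolysis and 0.13 for TCA enzymes in islets, and 0.07 and -0.01 in spleen. Libraries of the receptors did not overlap, with 4-8 higher, for 1 glycolysis enzyme and 2 TCA enzymes in islets, beside 5.92% of all genes, and for 1 glycolysis enzyme in spleen, beside 6.79%. These comparisons share libraries with the tissue comparisons. Of the heat shock list, 0 of 20 genes were called by limma in islets. At an unadjusted p under 0.05, 9 were lower with 4-8, beside 247 of the 8212 genes tested. The list had a mean rlog value of 8.08 to 8.15 in islet 4-8 libraries and 8.27 to 8.56 in islet 12-4.4m1 libraries. The authors' DESeq2 table called 3 of its genes lower and their Cuffdiff table called 2, and the part of these genes in the enzyme values was not tested.

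**Figure D5:**
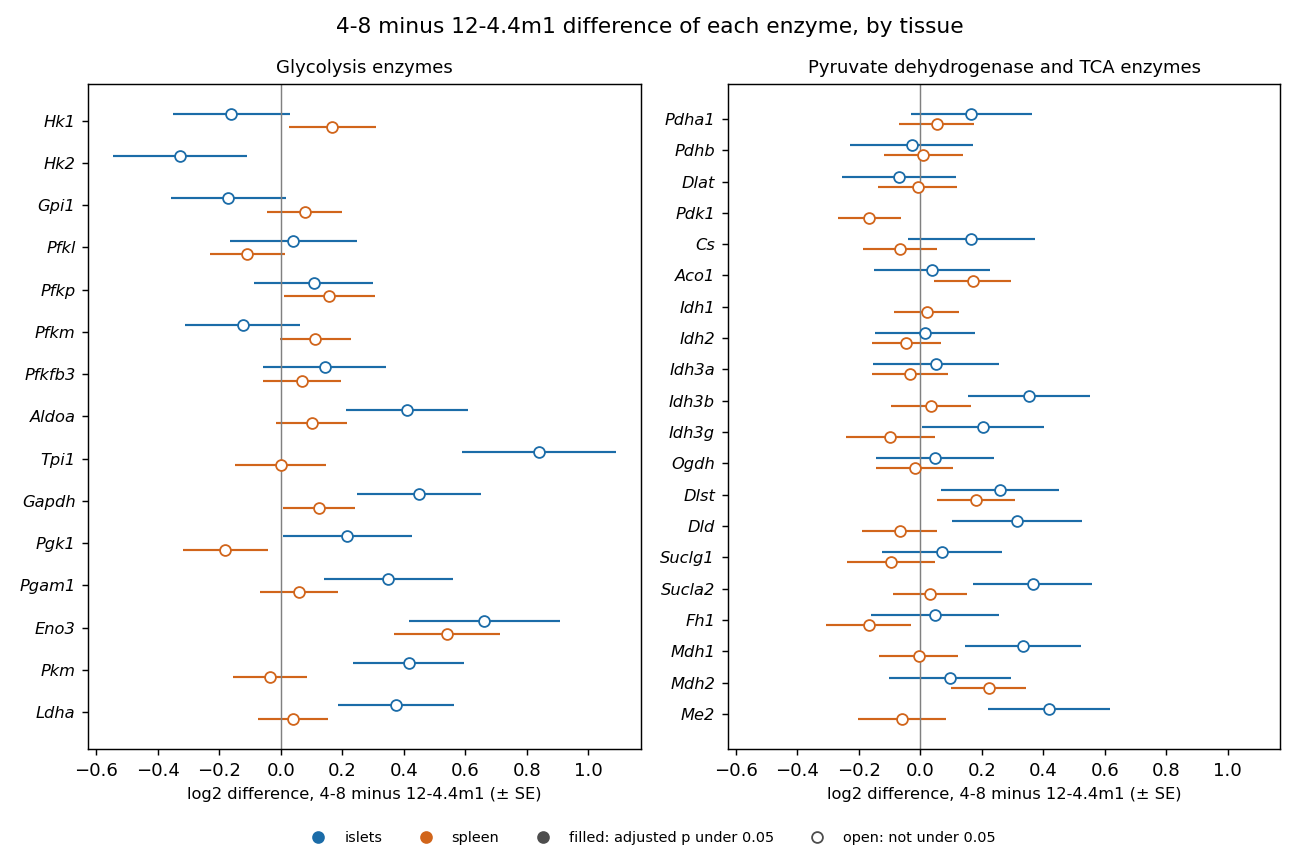
Log2 difference (4-8 minus 12-4.4m1, with the SE of the limma fit) of each tested enzyme in islets (blue) and spleen (orange). No point is filled, since none passed an adjusted p of 0.05, and the widest islet differences are those of Tpi1 at 0.84 and Eno3 at 0.66.

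The enzymes with the smallest p in islets did not pass. Tpi1 had values of 6.75, 6.70 and 7.11 in islet 4-8 libraries and 6.02, 5.25 and 6.77 in islet 12-4.4m1 libraries, where replicate 3 lay within the range of 4-8. The difference was 0.84 ± 0.25 (adjusted p 0.249, limma). Eno3 had values of 6.37, 6.62 and 6.45 with 4-8 and 5.08, 5.81 and 6.56 with 12-4.4m1, again with replicate 3 at the level of 4-8, and a difference of 0.66 ± 0.25 (adjusted p 0.461, limma). Without islet 12-4.4m1 replicate 3 both passed, at 1.22 and 1.03 (adjusted p 0.00345 and 0.0209, limma), the lone change of call among the enzymes of that table when a library was left out. Pkm did not overlap between the receptors (9.74, 10.08 and 10.03 against 9.44, 9.44 and 9.71) and differed by 0.42 ± 0.18 (adjusted p 0.623, limma).

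Islet 12-4.4m1 replicate 3 had a glycolysis mean of 7.29 in the islet table, beside 6.91 and 6.85 in replicates 1 and 2 and 7.21 to 7.26 in the 4-8 libraries. Its TCA mean of 5.74 was the lowest of the 6 libraries. Hk2 was at 5.93 in that library and at 5.16 and 5.01 in the others of its group, and the receptor difference of Hk2 was -0.33 ± 0.22 (adjusted p 0.839, limma). The title of that library is written in another style than those of the other 2 in its group. Its style is also that of all spleen libraries, and the style of the other 2 occurs only among islet libraries. Style and tissue thus overlap in part. The labels do not say what the style stands for, and its part in the enzyme values was not tested beyond a fit with the style as a term, which called 0 of the enzymes.

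Among TCA enzymes in islets, Me2 had values of 5.32, 5.63 and 5.21 with 4-8 and 5.07, 4.67 and 5.17 with 12-4.4m1. These groups did not overlap, and the difference was 0.42 ± 0.20 (adjusted p 0.705, limma). Mdh1 did not overlap either (8.36, 8.55 and 8.37 against 7.83, 8.26 and 8.17), at 0.33 ± 0.19 (adjusted p 0.789, limma). The succinyl-CoA ligase subunit Sucla2 (0.37 ± 0.19, adjusted p 0.765, limma) and Idh3b (0.35 ± 0.20, adjusted p 0.787) had the next smallest p, and both overlapped between the receptors. Sucla2 values were 5.55, 5.49 and 5.35 against 5.39, 4.95 and 4.95. Those of Idh3b were 6.58, 6.61 and 6.76 against 6.62, 6.03 and 6.23. In both genes replicate 1 of 12-4.4m1 was the highest of its group.

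In spleen Eno3 had values of 6.09, 6.05 and 7.01 with 4-8 and 5.79, 5.80 and 5.95 with 12-4.4m1. Replicate 3 of 4-8 stood far above the others, and without it the difference fell from 0.54 ± 0.17 to 0.23 (adjusted p 0.271 and 0.832, limma). The authors' deposited Cuffdiff table gave Eno3 56.0 FPKM with 4-8 and 22.1 with 12-4.4m1, with a q of 0.00793. The next glycolysis enzymes by p were Pgk1 and Hk1. Pgk1 values were 6.13, 6.57 and 6.50 against 6.64, 6.37 and 6.74 (-0.18 ± 0.14, adjusted p 0.802, limma). Hk1 values were 7.30, 7.31 and 7.54 against 7.44, 7.35 and 6.86 (0.17 ± 0.14, adjusted p 0.836, limma). Both overlapped between the receptors.

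The TCA enzymes with the smallest p in spleen were Mdh2, Pdk1 and Dlst. Mdh2 had values of 8.41, 8.73 and 8.52 with 4-8 and 8.28, 8.44 and 8.28 with 12-4.4m1, overlapping groups that differed by 0.22 ± 0.12 (adjusted p 0.711, limma). Pdk1, the kinase that switches off pyruvate dehydrogenase, had values of 3.89, 3.98 and 4.14 against 4.26, 4.06 and 4.20 (-0.17 ± 0.10, adjusted p 0.737, limma) at a mean normalized count of 18.0. Dlst, a 2-oxoglutarate dehydrogenase subunit, stood at 6.82, 6.81 and 6.81 against 6.45, 6.61 and 6.84 (0.18 ± 0.13, adjusted p 0.781, limma). None of these is shown to be equal between the receptors, since differences well beyond the SE can miss the threshold. Tpi1 in islets (0.84 ± 0.25) and Eno3 in spleen (0.54 ± 0.17) were not called.

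Some glycolysis genes have near-identical copies elsewhere in the genome, and their levels are uncertain where counting splits or drops shared reads. Such copies were not searched for here, so no enzyme is shown to be free of this. Eno1, the main enolase of most cells, had a mean normalized count of 2.85 in the 4-8 tissue table although the authors' deposited Cuffdiff table gave it 113 FPKM in islets and 78.6 in spleen. Its count per FPKM was 0.030, beside a median of 3.19 over genes, which places it at percentile 1.46. Cuffdiff joined Eno1 with a second locus, and the count tables carry a row named Eno1b with a mean normalized count of 41.4, which differed by 0.55 ± 0.19 between tissues with 4-8 (adjusted p 0.0865, limma), a row chosen after its values were seen. Pgam1, Pgk1 and Gapdh also had few counts per FPKM, at percentiles 5.29, 9.26 and 14.9. Since FPKM is scaled to transcript length, short transcripts have few counts per FPKM too, and a low percentile alone shows no lost reads. Mdh2, Suclg1 and Idh3g stood at percentiles 20.6, 23.7 and 23.8. In the authors' deposited Cuffdiff tables Pgam1 and Gapdh were higher in islets with both receptors, as in the rlog fits for all but Pgam1 with 12-4.4m1.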

How the data were processed

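RNA-seq of 12 libraries (4 groups of 3) was deposited as 4 tables of 6 libraries. The authors' deposited rlog values are on a log2 scale, per the file headers and values. The authors' deposited DESeq2 tables give a mean normalized count (a signal, not a raw count), a log2 fold change and p-values. The deposited Cuffdiff tables give FPKM per group and q-values, per the file headers. The submitters' processing notes name TopHat 1.0.0, Cufflinks, STAR 1.1.0, DESeq, DESeq2 1.1.0 and the builds mm10 and GRCm38, without roles. The labels' protocols describe lysis in detergent, amplified cDNA and Nextera XT libraries. Amplification before counting means that counts are not independent molecules.

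Each rlog table was fitted with limma 3.58.1 (mean-variance trend) in R 4.3.3 over genes with a mean normalized count of at least 10, with Benjamini-Hochberg adjustment over all of them and a threshold of 0.05. The script was tested on simulated data. Summaries used Python 3.11.15, pandas 2.3.3 and numpy 2.4.6. Columns were matched to samples by title. One islet 4-8 column matched its group only, and entered the group as the remaining replicate 3. The descriptions of the spleen replicates 2 list the tissue table of the other receptor, and titles and columns were followed. Symbols that occur more than once (2 symbols, 4 rows) were left out.

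The members and gene lists were chosen with earlier results of these data known. Values per library are given for up to 10 members per list and comparison that passed, by p, filled to 3 where fewer passed, and for a fixed set of isozymes by FPKM. Of the other lists, up to 3 genes by p and a fixed set were eligible. Alternatives covered the count minimum, scaling, variance trend, replicate block, title style, single libraries, and the authors' deposited DESeq2 and Cuffdiff calls. Promoter sequence is RefSeq's (GRCm38.p6) and gene positions are GENCODE vM21's (GRCm38).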

Additional observations from a re-analysis of the deposited data

How the results depend on the processing

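Mdh2 with 12-4.4m1 and 6 of the 8 glycolysis calls with 4-8 (Pkm, Pgam1, Ldha, Gapdh, Tpi1 and Hk2) passed under every alternative that gave a value, single libraries left out included. With 4-8, leaving out a library gave 6 to 9 glycolysis and 0 to 3 TCA calls, with a TCA median of -0.0382 to 0.104. The 2 TCA calls of 4-8 became 0 with no filter, with quantile normalization, with no variance trend and without spleen replicate 2, and 1 with the replicate block. The 4-8 glycolysis median of 0.65 was 0.551 with no filter, 0.517 with quantile normalization and 0.856 by the authors' DESeq2. Over the enzymes that the authors' Cuffdiff tested, its medians were 0.824 for glycolysis and 0.0854 for TCA enzymes. Over the enzymes tested by limma, the Cuffdiff FPKM gave 0.895 and 0.0395. With 12-4.4m1, the 5 glycolysis calls became 2 with quantile normalization, 2 with no trend, 8 with the replicate block, 1 without spleen replicate 2 and 8 by Cuffdiff, and 1 to 6 when a library was left out. Over the enzymes that Cuffdiff tested there, its medians were 0.69 for glycolysis and -0.277 for TCA enzymes. Over the enzymes tested by limma, the Cuffdiff FPKM gave 0.718 and -0.0744. Counted in either direction, the 1 TCA call became 2 with median centring and 2 with the block. By Cuffdiff it became 4, of which 1 was higher and 3 were lower in islets. When a library was left out it was 1 to 2, with medians of -0.142 to -0.0184. In the tissue tables the setting without spleen replicate 2 equals that leave-one-out fit.

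Between the receptors, leaving out a library gave 0 to 2 glycolysis calls in islets and TCA medians of 0.103 to 0.208. The islet TCA median by Cuffdiff was 0.372 over the enzymes it tested, and 0.325 over those tested by limma. In spleen 1 glycolysis enzyme (Eno3) passed with the replicate block and 1 by Cuffdiff. The difference of Hk1 in spleen ranged from -0.0111, reversed without spleen 12-4.4m1 replicate 3, to 0.280 when single libraries were left out. Of the values of single named enzymes under the alternatives, 400 kept direction and side of the threshold, 45 lost and 10 gained the call and 1 reversed. The cause of these changes was not tested.

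The labels do not say whether replicate numbers pair the samples, and the main fits assumed no pairs. Correlations of same-numbered libraries were -0.12 to 0.21, and no table had all of them above 0.1. The replicate block called 36 genes higher and 42 lower between the receptors in spleen, beside 19 and 20 without it. Between tissues with 12-4.4m1 it called 462 and 262, beside 391 and 184. In spleen every library correlated best with its own number (0.120, 0.0865 and 0.0748), a hint from the data. Quantile normalization called 327 genes higher and 238 lower with 12-4.4m1, beside 391 and 184 as deposited. Raw counts were not used here, so depth and counting error are not known, and low-count enzymes such as Hk2 and Pdk1 are the least precise. With 3 libraries a group, enzymes that missed the threshold are not shown to be equal.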
